A study of Rattus norvegicus with 71 samples.

Results

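The genes described here are 31 genes of the striatum and of forebrain GABAergic neurons, chosen by symbol: factors of the ganglionic eminences and of the neurons born there, genes of striatal projection neurons, and genes of interneurons. Of the 31, 30 have a row among the 17494 genes of the count table, and Dlx6 was not analysed here. RNA-seq was performed on 71 wild-type Sprague-Dawley rat offspring of 27 litters at postnatal day (PND) 2, with 1 library per animal. Dams of the 47 MARA offspring (maternal autoantibody-related autism, 20 litters) were immunized before pregnancy. Their injections held Freund's adjuvant and peptides from the proteins in the pattern's name. Dams of the 24 controls (7 litters) received adjuvant and saline only. The patterns were CRMP1+CRMP2 (8 animals, 4 litters), LDHA/B+CRMP1+STIP1 (25 animals, 9 litters), CRMP1+GDA (6 animals, 3 litters) and STIP1+NSE (8 animals, 4 litters). Each pattern thus rests on a small number of dams, and littermates share their dam.

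The sample titles form 2 series, and the study's methods describe batches of the same composition that were processed and sequenced separately. The series with titles in IgG, FcRn or RNA (the IgG/FcRn/RNA series) holds 28 animals of 7 litters, 12 of them controls and 16 of them LDHA/B+CRMP1+STIP1. The MAR_C3 series holds 43 animals of 20 litters, with 12 controls, 9 LDHA/B+CRMP1+STIP1 animals and all animals of the other 3 patterns. The tissue was a coronal slice of 150 µm with the hippocampus and nearby cortical and subcortical structures according to the sample labels, whereas the series description names frontal cortex and hypothalamus. Libraries held between 24880182 and 36234952 counts. A level is given below in CPM, the counts of a gene scaled to equal library totals, and a difference as a log2 fold change with its standard error (SE) from edgeR. A gene is called at a Benjamini-Hochberg adjusted p (FDR) below 0.1 over all genes tested.

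GABAergic neurons of the forebrain arise in the ganglionic eminences under Dlx homeobox factors. The lateral eminence gives rise to striatal projection neurons, of which one class carries the dopamine receptor Drd1 with the peptides Tac1 and Pdyn, and the other carries Drd2 with Adora2a and Penk. The medial and caudal eminences send out interneurons that settle in cortex, hippocampus and striatum and are recognised by peptides such as Sst, Npy and Vip. In bulk RNA, fewer cells of a type and less RNA per cell cannot be told apart.

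Of the 30 genes, 23 matched a RefSeq promoter window of the GRCr8 assembly (250 bases before to 50 after the annotated start). Textbook elements of Sst and Rarb are shown, because Rarb had the largest difference in the series comparison below. Sst had the highest median level per kilobase of exon and a call in an exposure comparison. The cyclic AMP response element TGACGTCA, searched on both strands, was found in 1.83% of 33469 windows and, among the 23, in Sst only, where it starts at base 3 after the annotated start (chr11:90461488-90461575, GRCr8, plus strand, element in capitals).
Sst: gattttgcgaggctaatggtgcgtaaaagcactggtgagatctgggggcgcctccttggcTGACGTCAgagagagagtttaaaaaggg
The repeat of retinoic acid response elements, searched as GTTCA, any 6 bases and GTTCA on both strands, was found in 0.418% of windows and, among the 23, in Rarb only, starting at base 26 after the annotated start (chr15:11336413-11336436, GRCr8, plus strand, repeat in capitals).
Rarb: aaggGTTCACCGAAAGTTCActcg

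Per kilobase of exon (RPKM, from the deposited gene lengths), the interneuron peptide genes Sst and Npy had the highest levels of the 30 genes. The median RPKM over the 71 animals was 176 for Sst, which encodes somatostatin, and 110 for Npy, which encodes neuropeptide Y. Meis2, a homeobox factor of the lateral eminence and its progeny, followed with a median RPKM of 54.8, Dlx1 with 31.8 and Foxp1 with 30.3. The lowest medians were those of Ikzf1 (0.685 RPKM), the progenitor factor Gsx2 (0.984 RPKM), Lhx8 (1.64 RPKM) and Vip (2.15 RPKM). Lhx8 had no count in 6 of 71 animals and Isl1 in 1, and the other 28 genes were counted in every animal.

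Levels of striatal projection neuron genes differed between the 2 sets of control animals, which share strain, age and lack of exposure. Of the 9 genes of this group, 8 were lower in the MAR_C3 controls than in the IgG/FcRn/RNA controls (edgeR with sex as covariate, FDR below 0.1), and none was higher. Over all 12565 genes tested, 20.2% were called lower in the MAR_C3 controls and 21.3% higher. Ppp1r1b, which encodes the dopamine signalling protein DARPP-32 (chr10:83347731-83356773, rn7), ranged from 18.9 to 66.6 CPM with a median of 28.5 in the MAR_C3 controls and from 39.7 to 246 CPM with a median of 142 in the other controls (log2 fold change = -2.32, SE = 0.24, adjusted p = 9.4e-08). The 2 sets of Ppp1r1b values overlap between 39.7 and 66.6 CPM, the lowest of the IgG/FcRn/RNA controls and the highest of the MAR_C3 controls. Drd1 (chr17:10541546-10544971, rn7) ranged from 5.77 to 17.32 CPM (median 9.54) in the MAR_C3 controls and from 17.34 to 60.9 CPM (median 35.5) in the other controls, with a narrow gap between the sets (log2 fold change = -1.90, SE = 0.18, adjusted p = 2.9e-08).

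All 3 genes of the Drd2 class were lower too. Drd2 (chr8:49708927-49772875, rn7) ranged from 7.36 to 14.8 CPM (median 9.39) in the MAR_C3 controls and from 13.9 to 45.8 CPM (median 32.2) in the others (log2 fold change = -1.68, SE = 0.17, adjusted p = 4.5e-08). Adora2a, the adenosine receptor of the same cells (chr20:13315853-13333386, rn7), ranged from 3.91 to 32.1 CPM (median 9.33) and from 9.96 to 81.9 CPM (median 56.5), respectively (log2 fold change = -2.20, SE = 0.33, adjusted p = 2.2e-05). The sets overlap in both genes, by the lowest animals of the IgG/FcRn/RNA controls. Penk, the enkephalin precursor, had medians of 32.5 and 89.0 CPM (log2 fold change = -1.44, SE = 0.31, adjusted p = 0.00093). With the litter as a random effect the adjusted p of Penk was 0.11.

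Both peptides of the Drd1 class were lower, and Rgs9 was not. Tac1, the substance P precursor, ranged from 15.7 to 23.6 CPM (median 19.3) in the MAR_C3 controls and from 10.4 to 61.6 CPM (median 37.8) in the others (log2 fold change = -0.998, SE = 0.17, adjusted p = 6.8e-05). Pdyn, the dynorphin precursor, had medians of 10.8 and 28.5 CPM (log2 fold change = -1.20, SE = 0.22, adjusted p = 0.00014). Pde10a, a phosphodiesterase abundant in striatal projection neurons, ranged from 62.6 to 77.5 CPM and from 93.2 to 175 CPM, without overlap (log2 fold change = -0.98, SE = 0.09, adjusted p = 4.5e-09). Rgs9, whose striatal product speeds the shut-off of G protein signals, was the one gene of the group that was not called, with medians of 14.6 and 15.6 CPM (log2 fold change = -0.08, SE = 0.14, adjusted p = 0.70).

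**Figure D1:**
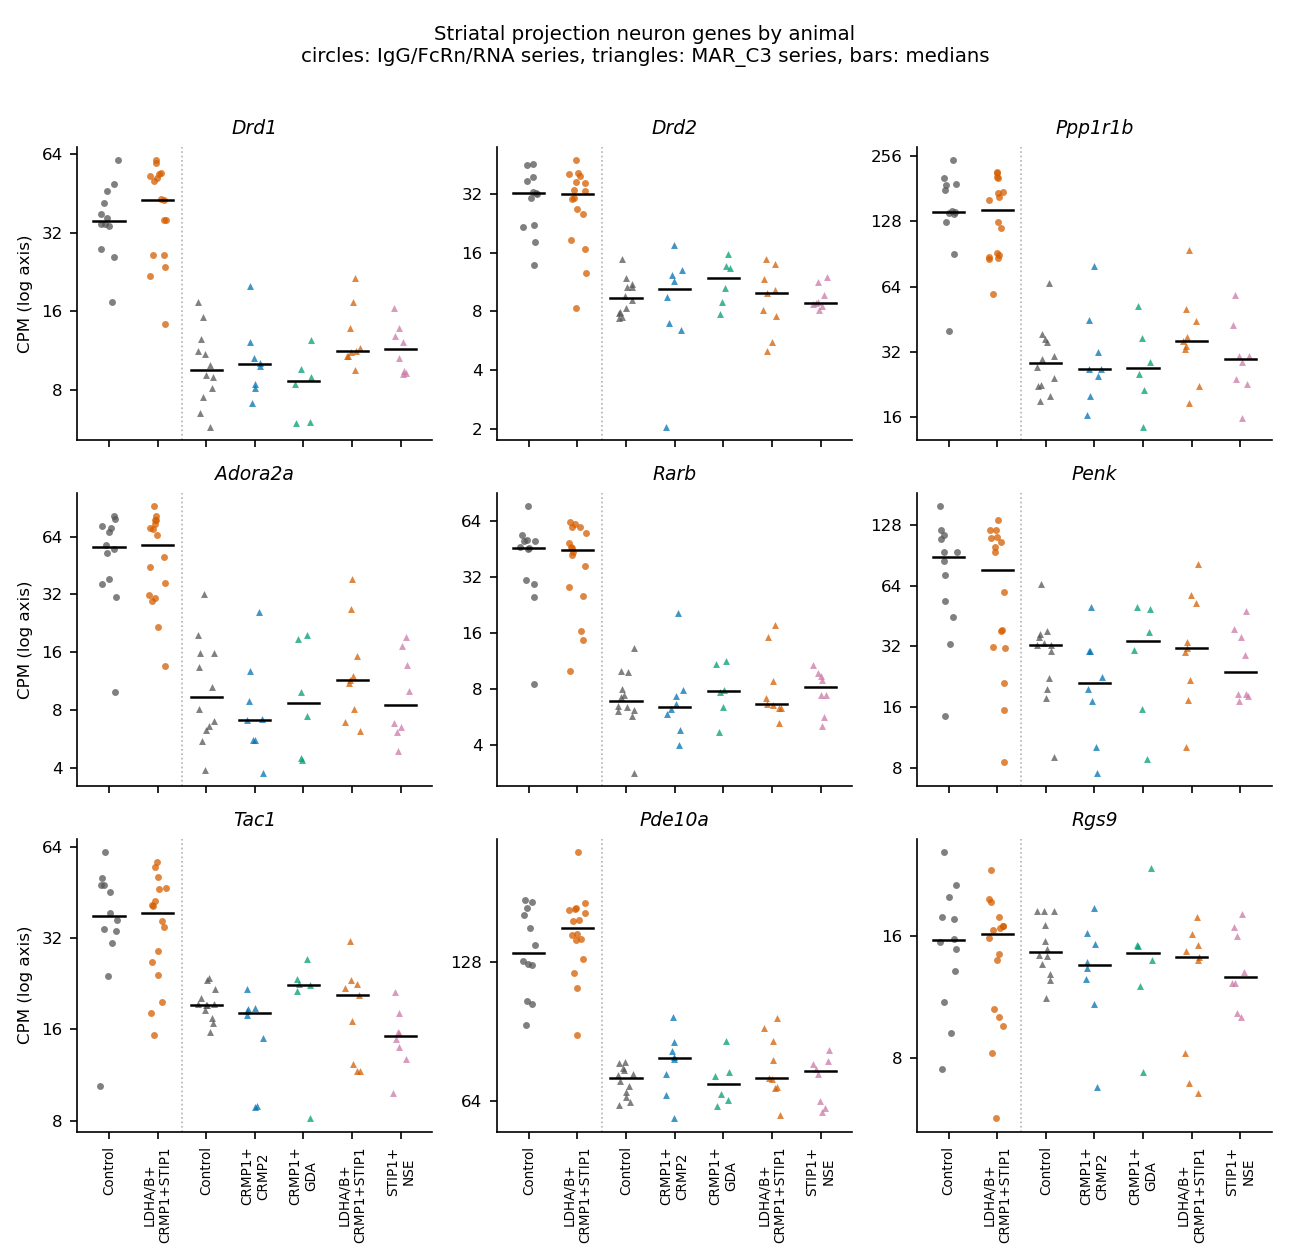
Level in each of 71 animals (CPM, logarithmic axis) of 8 striatal projection neuron genes and the striatal factor Rarb, by exposure group, with circles for the IgG/FcRn/RNA series, triangles for the MAR_C3 series and bars at the medians. Medians of Drd1, Drd2, Ppp1r1b, Adora2a, Rarb, Penk, Tac1 and Pde10a are higher in both groups of the IgG/FcRn/RNA series than in any of the 5 groups of the MAR_C3 series, and Rgs9 has similar medians in both series.

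Of 6 transcription factors of striatal lineages, 5 were called lower in the MAR_C3 controls, where 20.2% of all genes were. Rarb, a retinoic acid receptor of developing striatum (chr15:8905623-9051287, rn7), ranged from 2.85 to 13.3 CPM (median 6.89) in the MAR_C3 controls and from 8.49 to 77.1 CPM (median 46.0) in the others. Its difference was the largest of the 30 genes, a 5.79-fold lower level (log2 fold change = -2.53, SE = 0.25, adjusted p = 5.3e-08). Ikzf1, the Ikaros factor, was 5.75-fold lower, but at medians of 0.559 and 3.19 CPM (log2 fold change = -2.52, SE = 0.34, adjusted p = 3.2e-06). Meis2 had the smallest p of the 30 genes, with 99.9 to 162 CPM in the MAR_C3 controls and 203 to 474 CPM in the others (log2 fold change = -1.56, SE = 0.11, adjusted p = 9.0e-11). The control sets do not overlap in Meis2, nor in Foxp1, a forkhead factor of striatal projection neurons and cortex, which was 2.10-fold lower (log2 fold change = -1.07, SE = 0.09, adjusted p = 1.5e-09). Ebf1, a factor of Drd1-class neurons, was also called (log2 fold change = -0.96, SE = 0.25, adjusted p = 0.0052; 0.25 with the litter as a random effect). Isl1, a LIM homeobox factor of that class and of cholinergic neurons, was not, at 0 to 8.50 CPM in the MAR_C3 controls and 1.18 to 24.0 CPM in the others (adjusted p = 0.15).

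Of 9 factors of the eminences, 7 were called lower in the MAR_C3 controls and none higher, with a median log2 fold change of -1.04. Over all genes tested, 20.2% were called lower and 21.3% higher. Dlx1 and Dlx2, which specify GABAergic fate, are neighbours on opposite strands (chr3:56356190-56360780 and chr3:56371347-56373230, rn7). Dlx2 ranged from 16.9 to 23.5 CPM in the MAR_C3 controls and from 27.8 to 56.6 CPM in the others, without overlap (log2 fold change = -1.04, SE = 0.10, adjusted p = 8.5e-09), and Dlx1 from 66.2 to 100 CPM and from 93.0 to 197 CPM (log2 fold change = -0.70, SE = 0.09, adjusted p = 8.6e-07). Dlx5, of the second Dlx pair, was 2.35-fold lower (adjusted p = 1.3e-05). The zinc finger factors of the lateral and caudal eminence followed in part: Sp8 was 2.07-fold lower (adjusted p = 0.00071), and Sp9 1.33-fold lower (adjusted p = 0.040), a call that was lost with the litter as a random effect (adjusted p = 0.34) and without litter 9_25 (0.11), IgG1 (0.11) or IgG2 (0.20).

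Factors of the medial eminence did not move alike. Gsx2, a progenitor factor of the lateral eminence, was 2.30-fold lower at medians of 0.723 and 1.67 CPM (adjusted p = 0.00045), and Lhx6, a factor of medial-eminence interneurons, was 1.44-fold lower at medians of 47.3 and 68.0 CPM (adjusted p = 0.00078). Nkx2-1, which defines the medial eminence and also marks hypothalamus, had nearly equal medians of 12.0 and 12.3 CPM (log2 fold change = 0.07, SE = 0.34, adjusted p = 0.89). Lhx8, a factor of basal forebrain cholinergic neurons, spread from 0 to 16.8 CPM in the MAR_C3 controls and from 0.397 to 30.2 CPM in the others and was not called (adjusted p = 0.19).

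Of 6 genes of interneurons, 2 were called, both lower in the MAR_C3 controls, and the median log2 fold change was -0.15. Over all genes tested, 20.2% were called lower and 41.5% in either direction, so this count does not set the interneuron genes apart. Npy ranged from 32.1 to 80.9 CPM (median 46.4) and from 54.5 to 118 CPM (median 81.8; log2 fold change = -0.86, SE = 0.16, adjusted p = 0.00025), and Sox6, a factor of medial-eminence interneurons, was 1.31-fold lower (adjusted p = 0.0019). Sst (chr11:76956896-76958173, rn7) ranged from 72.5 to 143 CPM (median 109) and from 74.5 to 169 CPM (median 124), with wide overlap (log2 fold change = -0.19, SE = 0.12, adjusted p = 0.25). Vip, Maf and Adarb2, of which Maf marks medial and Adarb2 caudal-eminence interneurons, had log2 fold changes of -0.11 (SE = 0.21), -0.08 (SE = 0.08) and 0.07 (SE = 0.12).

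**Figure D2:**
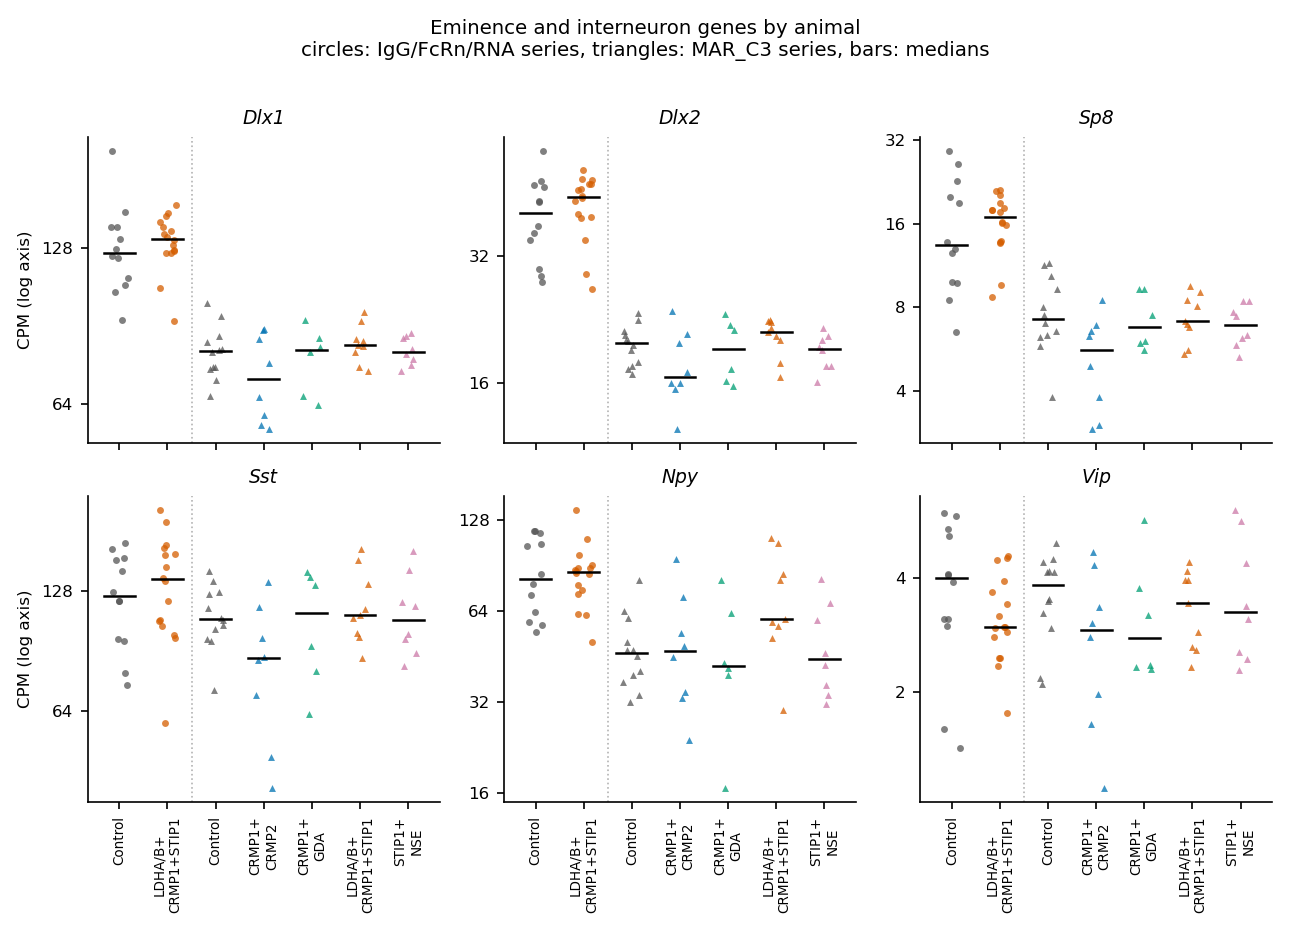
Level in each of 71 animals (CPM, logarithmic axis) of the eminence factors Dlx1, Dlx2 and Sp8 and the interneuron peptides Sst, Npy and Vip, by exposure group, with circles for the IgG/FcRn/RNA series, triangles for the MAR_C3 series and bars at the medians. The control sets do not overlap in Dlx2 and overlap widely in Sst and Vip.

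Across the 30 genes, 22 were called lower in the MAR_C3 controls, 0 higher, and the median log2 fold change was -1.02, against 0.00 over all genes tested. Of all genes, 20.2% were called lower and 21.3% higher. In 5 genes (Dlx2, Foxp1, Meis2, Drd1 and Pde10a) every MAR_C3 control lay below every other control, as was the case for 94 of the 12565 genes (0.748%). Leaving out each control litter in turn gave between 21 and 23 calls, litter sums gave 22, and the litter as a random effect gave 19. The share of all genes called in either direction was 41.5% in the main fit. It was 31.3% to 41.9% with a litter left out, 15.6% with litter sums and 22.4% with the random effect. Title series and processing batch cannot be told apart in this comparison, since each control animal belongs to 1 series.

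Genes of other regions moved with this difference. Of 15 other striatal genes measured, 10 were lower and none higher in the MAR_C3 controls, among them Rxrg, a retinoid receptor, with medians of 11.8 and 101 CPM (log2 fold change = -3.17, SE = 0.31). Of 8 cortical and hippocampal glutamatergic genes, 5 were lower and 2 higher. In contrast, 6 of 7 thalamic, 7 of 8 hypothalamic and 7 of 7 choroid plexus markers tested were higher in the MAR_C3 controls. Over all genes tested, 20.2% were called lower and 21.3% higher. However, Clic6, Nr5a1 and Hcrt stayed below 1 CPM in every IgG/FcRn/RNA control. Markers of this kind could pass the filter only through MAR_C3 controls in which they were high, which raises the counts of higher markers. Summed over its list, the thalamic level ranged from 295 to 965 CPM in the MAR_C3 controls and from 62.8 to 153 CPM in the others, the hypothalamic level from 4.10 to 74.5 CPM and from 2.03 to 19.8 CPM, and the choroid plexus level from 125 to 2876 CPM and from 3.26 to 108 CPM. The defining thalamic marker Tcf7l2 was low in the IgG/FcRn/RNA controls (median 10.5 CPM, against 469 CPM in the MAR_C3 controls), whereas the hypothalamic peptide gene Pmch had no count in any of the 71 animals. Their part in the difference of the striatal genes was not tested.

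**Figure D3:**
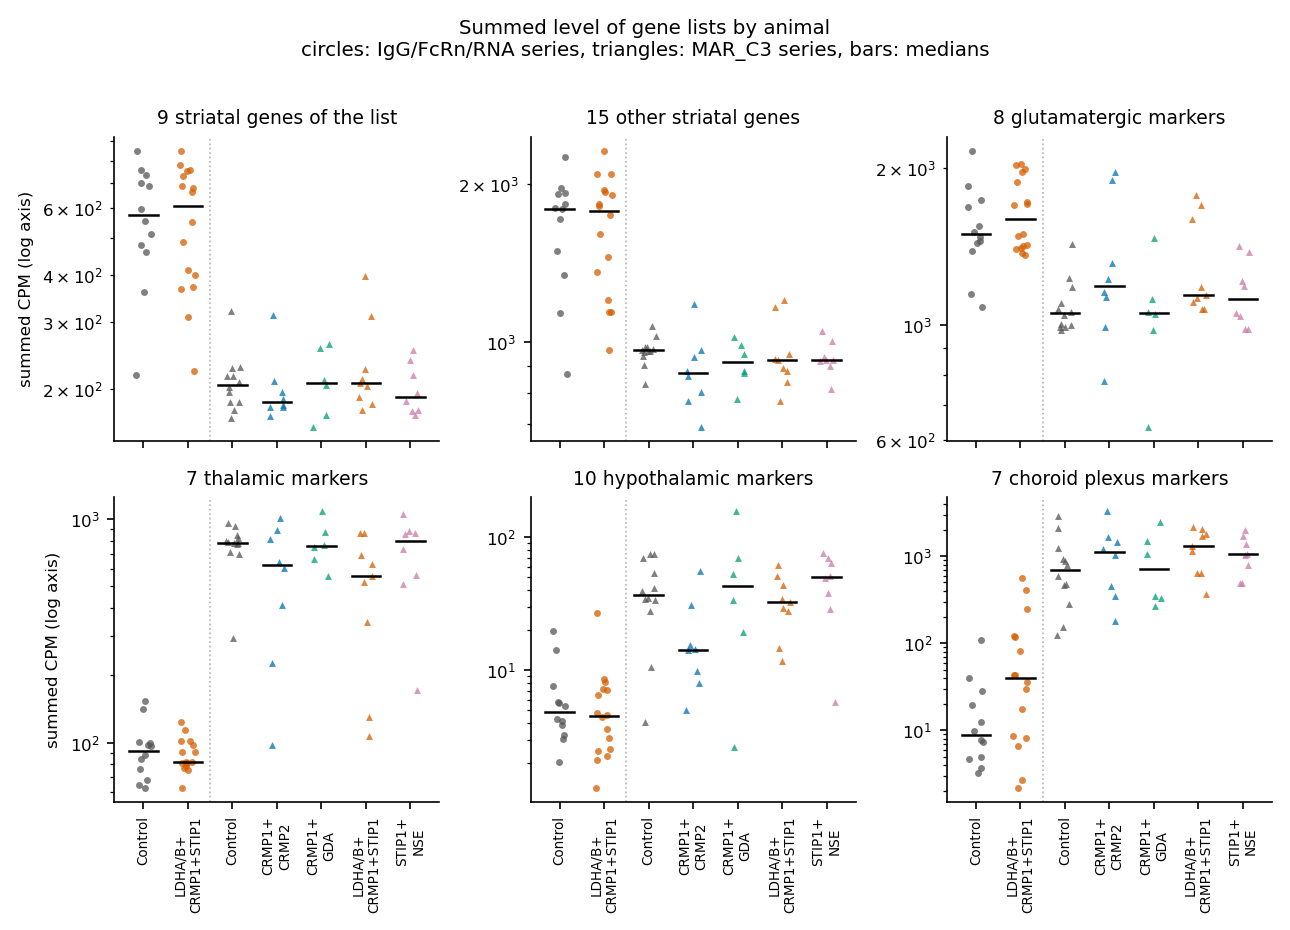
Summed level per animal (CPM, logarithmic axis) of 6 gene lists by exposure group, with circles for the IgG/FcRn/RNA series, triangles for the MAR_C3 series and bars at the medians. Both striatal sums have higher medians in the IgG/FcRn/RNA series, whereas the thalamic, hypothalamic and choroid plexus sums have higher medians in the MAR_C3 series.

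Within the IgG/FcRn/RNA series, single animals had low levels of many striatal genes at once. A female control of litter RNA4 had the lowest level of the 28 animals in 4 of the 9 striatal genes, 3 of the 6 striatal factors and 2 of the 9 eminence factors, and an LDHA/B+CRMP1+STIP1 female of litter RNA2 had the lowest in 5 of the 9 striatal genes. Their summed levels of the 9 striatal genes were 217 and 224 CPM, within the range of the MAR_C3 animals. Their thalamic sums of 64.9 and 81.0 CPM and choroid plexus sums of 4.69 and 8.65 CPM lay within the range of the controls of their own series, and their glutamatergic sums of 2155 and 1962 CPM were the highest and the fifth highest of the 71 animals. In the MAR_C3 series, an LDHA/B+CRMP1+STIP1 male of litter 9_19 had the highest level in 4 of the 9 striatal genes, with a sum of 398 CPM.

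Across animals, levels of striatal genes were related to each other, with different medians of r in the 2 series. Over the 36 pairs of the 9 striatal genes, the median Pearson's r of log2(CPM + 0.5) was 0.876 across the 28 IgG/FcRn/RNA animals, with 33 pairs above 0.7, and 0.319 across the 43 MAR_C3 animals, with 7 pairs above 0.7 and 9 below 0. Over all pairs of the 12477 genes expressed at 1 CPM or more in at least 8 animals, the medians were 0.015 and 0.012, with 0.815% and 1.75% of pairs above 0.7. These r describe animals that share litters and a processing batch, and the difference between the series was not tested.

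A set of 9 pairs was tested in each series with 100000 permutations (two-sided, Benjamini-Hochberg over the 18 tests), of which 10 had an adjusted p below 0.05. For Drd1 and Drd2, which belong to different neuron classes, Pearson's r was 0.924 in the IgG/FcRn/RNA series (n = 28, Spearman's rho = 0.919, permutation p = 1.0e-05, adjusted 2.3e-05) and -0.005 in the MAR_C3 series (n = 43, rho = -0.09, permutation p = 0.98). Without the 2 animals farthest from the median of Drd1, r was 0.910 and -0.13. The p of 1.0e-05 is the smallest that these permutations can give. Within a class the pattern was alike: for Drd2 and Adora2a r was 0.883 (rho = 0.905; 0.840 without 2 animals) and 0.04 (rho = -0.11; -0.05 without 2 animals), and for Drd1 and Tac1 0.880 (rho = 0.841; 0.848 without 2) and 0.11 (rho = 0.04; 0.02 without 2).

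Of the eminence pairs, Dlx1 and Dlx2 were related in both series, with r of 0.899 (rho = 0.893) and 0.683 (rho = 0.658), each at an adjusted permutation p of 2.3e-05. Without the 2 animals farthest from the median of Dlx1, r was 0.884 and 0.592. Nkx2-1 and Lhx8 were related in the IgG/FcRn/RNA series (r = 0.950, rho = 0.912, adjusted permutation p = 2.3e-05; 0.947 without 2 animals), and had r = 0.17 in the MAR_C3 series (rho = 0.07, adjusted permutation p = 0.39; r = 0.03 without 2 animals), where 6 animals had no Lhx8 count. Drd2 and Penk in the MAR_C3 series (r = 0.42, rho = 0.25, adjusted permutation p = 0.0084) fell to r = 0.19 without 2 animals, so at these levels the relation rests on those animals. On residuals from the mean of each exposure group, r of that pair was 0.43 (adjusted permutation p = 0.0072), and 0.39 without the 2 animals farthest from the median there.

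The interneuron genes did not vary as 1 block. Over their 15 pairs the median r was -0.09 in the IgG/FcRn/RNA series and 0.02 in the MAR_C3 series. Lhx6 and its lineage's peptide Sst were related in the first (r = 0.703, rho = 0.713, adjusted permutation p = 8.0e-05; 0.675 without 2 animals) and not in the second (r = 0.04, rho = 0.09, adjusted permutation p = 0.87; -0.02 without 2 animals). Sst and Npy had r of -0.15 (rho = -0.06, adjusted permutation p = 0.58) and 0.26 (rho = 0.42, adjusted permutation p = 0.14; r = 0.485 without 2 animals). In the MAR_C3 series the adjusted permutation p of their rho was 0.0091. Computed over litter means, 5 of the 18 tests had an adjusted p below 0.05, namely Dlx1 with Dlx2 and Drd2 with Penk in both series and Nkx2-1 with Lhx8 in the IgG/FcRn/RNA series. Over litters, Drd1 and Drd2 kept r = 0.947 in the IgG/FcRn/RNA series (permutation p = 0.037, adjusted 0.078, 7 litters). However, r was -0.40 without 2 litters, so that relation rests on those litters. So do those of Dlx1 with Dlx2 (0.17 without 2 litters) and Drd2 with Penk (0.18) in the MAR_C3 series.

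**Figure D4:**
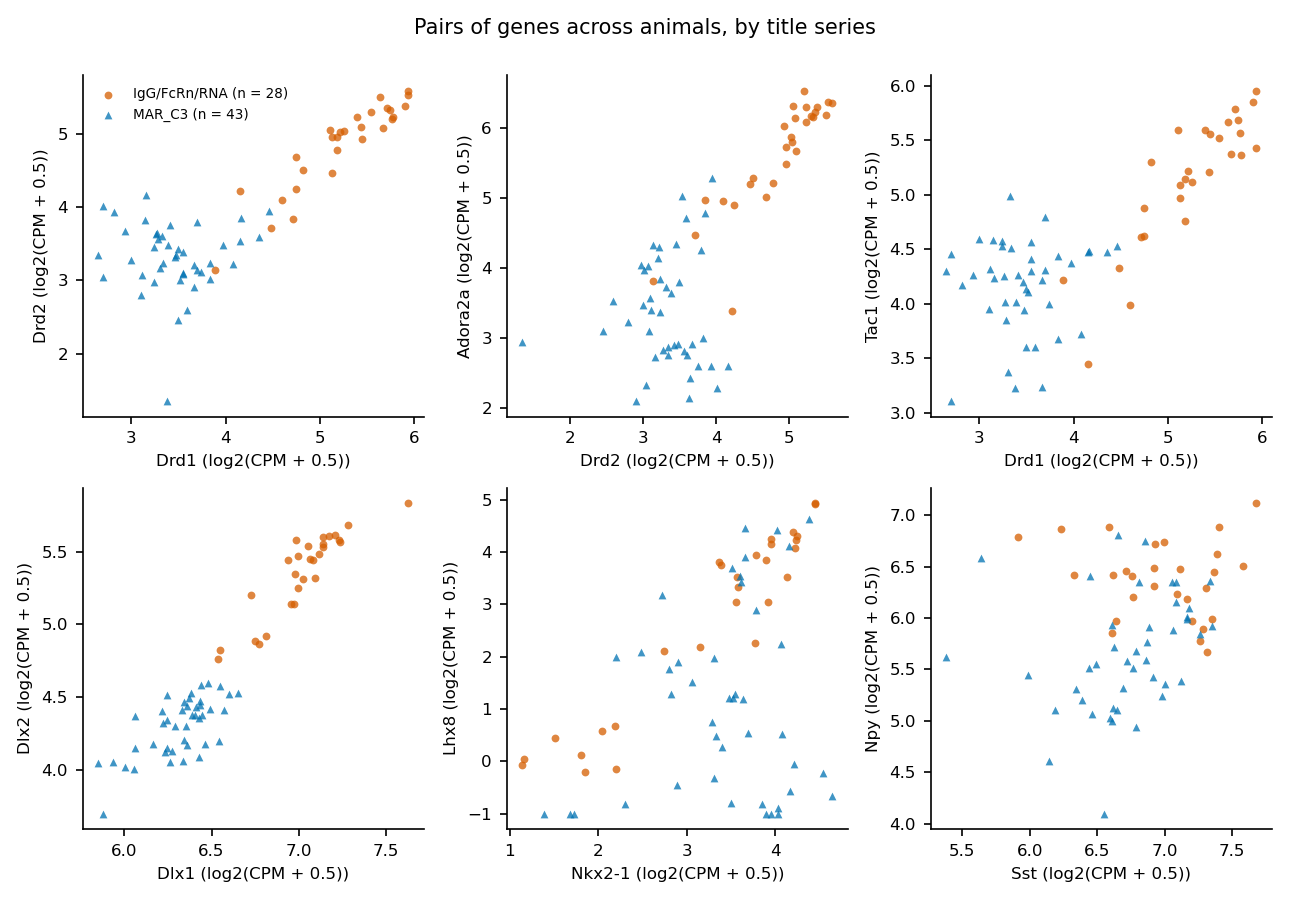
Levels of 6 pairs of genes (log2(CPM + 0.5) on both axes), 1 point per animal, with orange circles for the IgG/FcRn/RNA series (n = 28) and blue triangles for the MAR_C3 series (n = 43). Drd1 and Drd2 follow a line in the IgG/FcRn/RNA series (r = 0.924) and form a cloud in the MAR_C3 series (r = -0.005), whereas Dlx1 and Dlx2 are related in both and Sst and Npy in neither by Pearson's r.

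The question of the study was whether gestational exposure to the autoantibodies changes gene expression in the offspring brain. Between all 47 MARA animals and the 24 controls, 0 of the 30 genes were called (edgeR with 1 surrogate variable, 4 of 12477 genes called, 0.0321%). At an unadjusted p below 0.05 it was 1 of 30 genes (Maf, 0.12 higher on the log2 scale, SE = 0.05, adjusted p = 0.40), against 10.3% of all genes. The median log2 fold change of the 30 genes was -0.07, and 0.01 with series and sex as covariates. DESeq2 called 0 of the 30 genes as well.

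CRMP1+CRMP2 was the exposure pattern with called genes on the list, and the calls changed with the fit, the controls used and the litters. Against all 24 controls, 4 of the 30 genes were lower and 0 higher at FDR below 0.1, where 11.4% of 12691 genes were called. They were Sp8 (log2 fold change = -0.93, SE = 0.30, adjusted p = 0.065), Sst (-0.53, SE = 0.17, adjusted p = 0.066), Dlx2 (-0.50, SE = 0.18, adjusted p = 0.090) and Dlx1 (-0.39, SE = 0.14, adjusted p = 0.094). All 8 CRMP1+CRMP2 animals belong to the MAR_C3 series, and 12 of the 24 controls to the series in which Sp8, Dlx1 and Dlx2 are higher. Within the MAR_C3 series alone, against its 12 controls, 0 of the 30 genes were called, where 1.01% of 12605 genes were. That fit had sex in place of the surrogate variable and 12 controls in place of 24, so the part of the series alone was not separated. There the adjusted p was 0.19 for Sp8 (log2 fold change = -0.55, SE = 0.22), 0.22 for Sst (-0.40, SE = 0.18), 0.34 for Dlx1 (-0.16, SE = 0.09) and 0.35 for Dlx2 (-0.16, SE = 0.10).

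The values of the single animals show the overlap. Sp8 (chr6:139816258-139818865, rn7) was 2.92 to 8.53 CPM with a median of 5.62 in CRMP1+CRMP2 and 3.80 to 11.6 CPM with a median of 7.29 in the MAR_C3 controls. Sst was 41.1 to 135 CPM with a median of 86.9, against 72.5 to 143 CPM with a median of 109. The lowest Sst levels were those of a male of litter 9_6 (41.1 CPM) and a female of litter 9_1 (49.2 CPM), which lay below every MAR_C3 control. Dlx2 was 12.5 to 23.7 CPM (median 16.6) against 16.9 to 23.5 CPM (median 19.97), and the lowest value was that of the second male of litter 9_6.

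The count of 4 moved with the litters, and so did the share of all genes called. It was 0 without litter 9_6 (0.324% of all genes), 7 without litter 9_16 (1 of them higher; 22.8% of all genes), 13 without litter 9_10 (22.1%) and 9 without litter 9_25 (11.6%). It was 5 without litter 9_15 (8.07%), 2 without litter 9_1 (11.8%), 9_11 (6.31%) or IgG1 (9.14%), and 1 without litter 9_5 (8.02%), IgG2 (6.35%) or RNA4 (8.64%). Among all CRMP1+CRMP2 animals, the 9 striatal genes had log2 fold changes between -0.99 (Pdyn, SE = 0.38) and -0.14 (Pde10a, SE = 0.13) against the 24 controls, of which 0 were called. Without a covariate 13 of the 30 genes were called, among them Adora2a, Rarb and Ppp1r1b, and 7.96% of all genes. Conversely, 0 of the 30 genes were called with litter sums or the litter as a random effect (0% of all genes). With series and sex as covariates it was also 0 (3.87%). The fits with litter replaced the surrogate variable by series, or by series and sex, so the part of litters alone was not separated. Within the MAR_C3 series 11 of the 30 genes had positive and 19 negative differences. Foxp1 and Ikzf1 were among the positive (0.25, SE = 0.11, and 0.67, SE = 0.31, with adjusted p of 0.22 and 0.24).

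**Figure D5:**
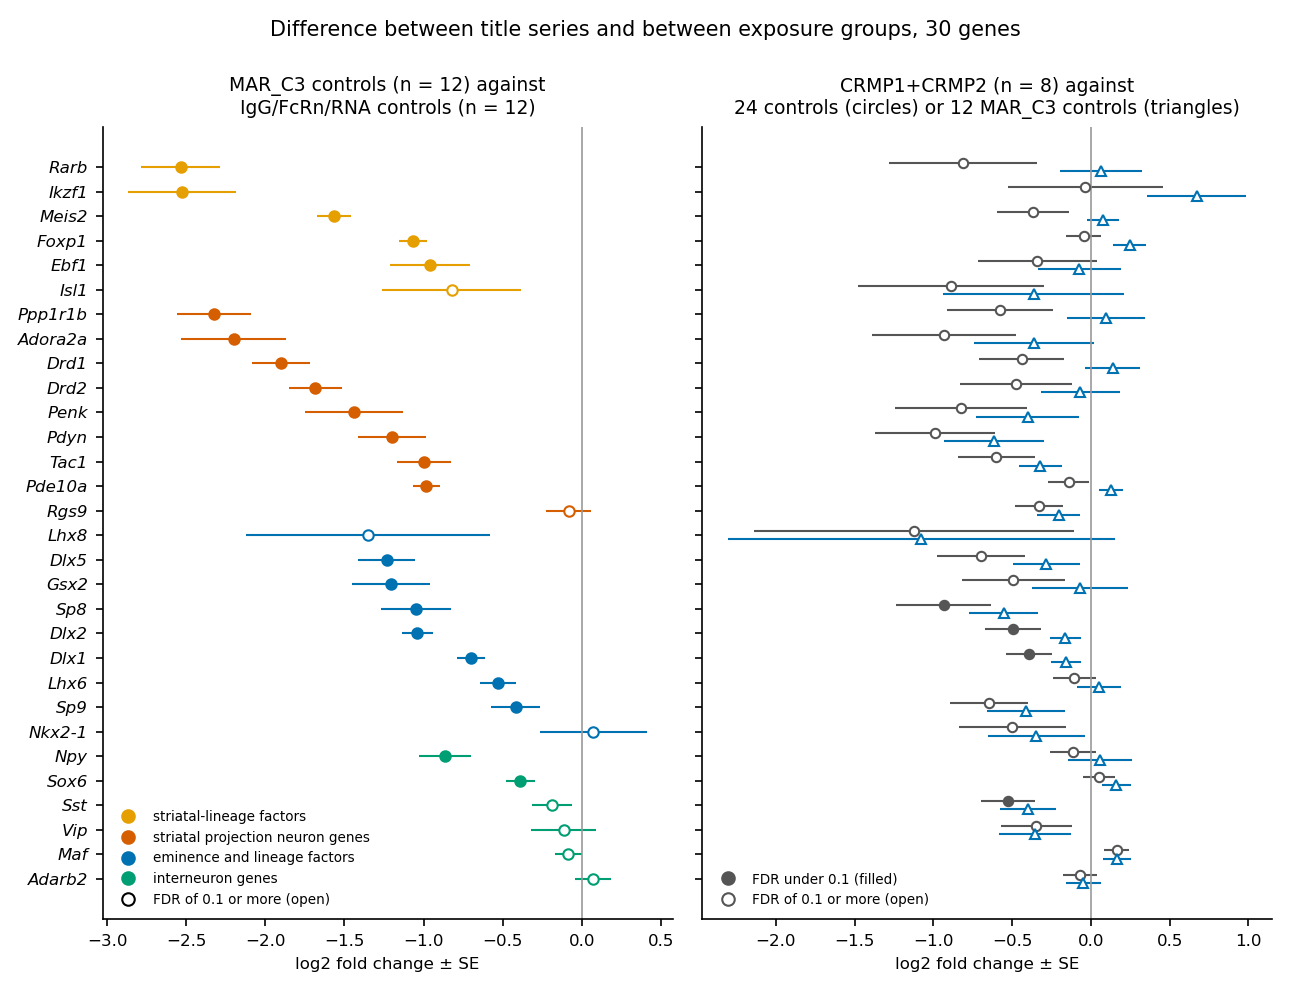
Log2 fold change with SE of the 30 genes, grouped by role, for MAR_C3 controls against IgG/FcRn/RNA controls (left, n = 12 and 12) and for CRMP1+CRMP2 (n = 8) against all 24 controls (right, circles) or the 12 MAR_C3 controls (triangles), filled where FDR was below 0.1. The left panel has 22 filled points, all below 0, and the right panel 4 filled circles (Sp8, Sst, Dlx2, Dlx1) and no filled triangle.

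Markers of other tissues differed among the CRMP1+CRMP2 animals too. Their summed thalamic level ranged from 98.1 to 1017 CPM (median 625.3), against 295 to 965 CPM (median 783) in the MAR_C3 controls, and the choroid plexus level from 183 to 3283 CPM (median 1132) against 125 to 2876 CPM (median 699). The hypothalamic level ranged from 4.99 to 55.5 CPM (median 14.2), against 4.10 to 74.5 CPM (median 37.1). Against all 24 controls, 6 of 7 choroid plexus markers were called higher, 1 of 8 hypothalamic markers lower and 0 of 7 thalamic markers. Over all genes tested, 11.4% were called. The 4 of 4 pineal markers were called higher as well. Of these, Crx, Aanat and Aipl1 stayed below 1 CPM in every control. They passed the filter only through CRMP1+CRMP2 animals in which they were high, so the pineal count cannot be read as a result. The female of litter 9_1 with the low Sst level had the thalamic sum of 98.1 CPM, the choroid plexus sum of 3283 CPM and Pdyn at 2.00 CPM, and the male of litter 9_6 had a thalamic sum of 227 CPM and Pdyn at 1.45 CPM. The summed pineal level ranged from 2.52 to 60.2 CPM (median 4.96) in CRMP1+CRMP2. In the MAR_C3 controls it ranged from 2.13 to 6.07 CPM (median 3.65). Whether these contributed to the lower Sst and Sp8 levels was not tested. Set against the other 3 patterns of the MAR_C3 series, which uses no control, CRMP1+CRMP2 had 0 called genes of 30 and 0 of 12698 (0%) with edgeR. At an unadjusted p below 0.05, 4 of the 30 genes (Sp8, Sst, Dlx1 and Dlx5, all lower) and 12.1% of all genes passed. DESeq2 called 0 of the 30 in this comparison.

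In the other 3 patterns, 0 of the 30 genes were called against the 24 controls. For LDHA/B+CRMP1+STIP1 the background was 0.0157% of 12700 genes, and at an unadjusted p below 0.05 0 of 30 genes and 7.17% of all genes passed. Within the MAR_C3 series, the smallest p of this pattern were those of Npy (median 60.004 against 46.4 CPM, log2 fold change = 0.56, SE = 0.19, adjusted p = 0.87) and Lhx6 (57.9 against 47.3 CPM, 0.31, SE = 0.11, adjusted p = 0.87). In the IgG/FcRn/RNA series, the medians of Npy were 85.9 CPM in 16 exposed animals and 81.8 CPM in 12 controls. The test of the difference between the series gave 0 of 30 genes called, where 14 of 12700 genes were (0.11%). In that test, 1 of 30 genes passed an unadjusted p below 0.05 (Npy, log2 difference = 0.58, SE = 0.24), against 3.05% of all genes.

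For CRMP1+GDA, 0 of 12641 genes (0%) were called by edgeR and 0 by DESeq2. At an unadjusted p below 0.05 the count was 0 of the 30 genes and 3.65% of all genes. The smallest p was that of Gsx2, at a median of 0.417 CPM against 0.723 CPM in the MAR_C3 controls (log2 fold change = -0.75, SE = 0.41 against the 24 controls). For STIP1+NSE, 6 of 12660 genes (0.0474%) were called, none of them on the list. At an unadjusted p below 0.05, 1 of the 30 genes passed, against 3.19% of all genes: Tac1, at 9.88 to 21.3 CPM (median 15.2) against 15.7 to 23.6 CPM (median 19.3) in the MAR_C3 controls, with an overlap of the sets (log2 fold change = -0.49, SE = 0.22 against the 24 controls). Within the MAR_C3 series its difference was -0.36 (SE = 0.11, adjusted p = 1.0).

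Males and females did not differ in any of the 30 genes at FDR below 0.1 with edgeR, where 0.0641% of 12477 genes were called. At an unadjusted p below 0.05, 1 of the 30 genes (Adarb2, 0.14 higher in males, SE = 0.06, adjusted p = 0.99) and 4.69% of all genes passed, and DESeq2 also called 0 of the 30. In 25 of the 30 genes the fitted level was higher in males, with a median of 0.11 on the log2 scale, against 0.00 over all genes, though the difference of Dlx2, counted among the 25, was 0.00. Among the 24 controls alone it was 17 of 30, with a median of 0.04.

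Among the 30 genes, those in which littermates were most alike in the MAR_C3 series were interneuron genes. The share of the variance within groups that lay between litters (intraclass correlation) was 0.51 for Adarb2, 0.49 for Vip, 0.35 for Maf, 0.34 for Npy, 0.30 for Sox6 and 0.22 for Sst. It was -0.35 for Rarb, 0.04 for Drd2 and 0.20 for Tac1. Values were centred on their group mean, which the divisor for litters did not allow for, so the estimates are biased downward. The bias differs between the series, and 0 does not mark the absence of likeness among littermates. The median was 0.04 over the 30 genes and 0.28 over all genes, so Maf, Npy and Sox6 lay near the typical gene and Sst below it. The IgG/FcRn/RNA series did not have this order: Sp8 was highest at 0.44, Adarb2 followed at 0.29, and Vip, Maf, Npy and Sox6 were at 0.12, 0.10, 0.05 and -0.16. The spread between animals of a group was wider than that of most genes, with a median SD of 0.40 on the log2 scale in the MAR_C3 series and 0.50 in the IgG/FcRn/RNA series, against 0.19 and 0.19 over all genes.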

How the data were processed

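The deposited values are raw counts of each gene in each sample, which the authors made by aligning paired reads to the rat genome rn7 with STAR 2.5.4b and counting with featureCounts. The table also holds the deposited exon length of each gene in bases (other columns give coordinates). 0 sample columns were left unused. Whether strand or multi-mapping reads were used in counting is not given in the sources used here, so reads of Dlx1 and an antisense transcript could not be separated. Among counts from 1 to 9, 74.5% were even, and halved counts were tried. At the depth of these libraries (median 28439200 counts), genes near 1 CPM rest on few reads.

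Groups, sex and litter were taken from the labels, and the series from the titles. Differences were tested with edgeR 4.0.16 in R 4.3.3 (TMM, robust quasi-likelihood) with Benjamini-Hochberg adjustment over all genes tested. Genes needed 1 CPM in at least 8 samples (all MARA, sex) or over 1 CPM in at least 2 samples. Comparisons with the 24 controls had 1 surrogate variable (svaseq, sva 3.50.0). In their alternatives, litter sums had series as covariate, the random-effect fit series and sex, and fits within a series sex. These took the place of the surrogate variable. The control comparison and the series interaction had sex as a covariate, the test of sex had pattern and series, and CRMP1+CRMP2 against the mean of the other 3 patterns had sex. Comparisons of the 4 patterns share their controls. Animals were the replicates, so p-values do not account for shared dams, and litter sums and limma 3.58.1 with the litter as a random effect were run as alternatives, beside DESeq2 1.42.0, other size factors, filters and covariates and each litter left out in turn. The pipeline was tested on simulated counts of independent animals, with known changes set in chosen genes. Litter effects and the wide difference between the series were not simulated, so the test does not cover them. Correlations used log2(CPM + 0.5) in Python 3.11.15 with SciPy 1.17.1.

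Every one of the 31 genes was to be named, of the other lists at most 5 genes each. The genes and lists were chosen with earlier results of these data known. Promoter sequences are from RefSeq (GRCr8), not the build of the counts.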

Additional observations from a re-analysis of the deposited data

Results flagged for a closer look

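In groups of 4 to 10 animals, the highest or lowest value of each gene was compared with the rest of its group (gap to the nearest other animal over the range, against Dixon's 95% critical value). Chance gives such a value in about 1 in 20 groups only where values are normally distributed and groups are independent. Levels were compared in CPM without a log scale, and the same animals enter the groups of every gene. The count below therefore cannot be read as an excess over chance. Of 120 groups tested, 12 had such a value. Of these, 6 came from 1 animal, the CRMP1+CRMP2 female of litter 9_16, which was the highest of 8 in Lhx8 (21.6 CPM, the others 0 to 2.35), Meis2 (192 CPM, the others 97.3 to 138), Drd1 (20.004 CPM, the others 7.12 to 12.2), Ppp1r1b (79.4 CPM, the others 16.3 to 44.7), Adora2a (25.8 CPM, the others 3.77 to 12.7) and Rarb (20.5 CPM, the others 4.00 to 7.95). Without this litter 7 of the 30 genes were called (6 lower, 1 higher) in CRMP1+CRMP2 against the 24 controls, in place of 4, and 22.8% of all genes, in place of 11.4%.

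The other such values came from 5 animals. An LDHA/B+CRMP1+STIP1 male of litter 9_19 was the highest of 9 in Ppp1r1b (94.4 CPM, the others 18.6 to 50.6), and a STIP1+NSE male of litter 9_12 the highest of 8 in Lhx8 (12.5 CPM, the others 0.0694 to 4.22). In CRMP1+GDA, littermates of litter 9_8 stood apart: the female was the highest of 6 in Ebf1 (29.3 CPM, the others 7.42 to 13.2), and the male was the highest in Foxp1 (77.2 CPM, the others 45.0 to 56.4) and the lowest in Tac1 (8.13 CPM, the others 21.4 to 27.4). A female of litter 9_3 was the lowest of 6 in Meis2 (70.3 CPM, the others 135 to 152).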

How the results depend on the processing

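No paired analysis was possible because, between exposure groups, no label ties animals to each other, and the cohorts that the study's methods mention are not in the labels. For sex, the litter as a fixed factor gave 0 calls of the 30 genes. For CRMP1+CRMP2 against the 24 controls, the 4 calls (11.4% of all genes called) became 8 with DESeq2 (13.2%), 2 with no filter on low counts (7.77%) and 13 with no covariate (7.96%). They became 0 with litter sums (0%), the litter as a random effect (0%), series and sex as covariates (3.87%), or the MAR_C3 series only (1.01%), all without the surrogate variable. With each litter left out in turn they were between 0 and 13. Over all genes, that comparison called 613 higher and 832 lower genes, and 184 and 307 with series and sex as covariates. Leaving out litters gave 21 to 23 calls in place of 22 for the MAR_C3 controls against the other controls (31.3% to 41.9% of all genes, in place of 41.5%). For all MARA and the other 3 patterns it gave 0. Of the pairs of genes, 10 of 18 were called across animals and 5 over litter means. No direction was reversed among the fold changes of the called genes. The counts for the interaction, for sex and for CRMP1+CRMP2 against the other 3 patterns were 0 in every alternative run. Genes near 1 CPM (Gsx2, Ikzf1, Lhx8) are limited by depth.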

Other observations

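Other genes of GABAergic neurons were called in both directions between the control sets. Over all genes tested, 20.2% were called lower in the MAR_C3 controls and 21.3% higher. Pvalb, of the 25 genes tested here, stayed below 1 CPM in every IgG/FcRn/RNA control and passed the filter only through the MAR_C3 controls. Of the 25, 9 were lower and 6 higher in the MAR_C3 controls, and the latter count is near the share of all genes. Among the lower were Lamp5 (medians of 2.20 CPM in the MAR_C3 controls and 12.4 CPM in the others, log2 fold change = -2.06, SE = 0.32) and the chemokine gene Cxcl14 (24.1 and 59.0 CPM, -1.09, SE = 0.13). Among the higher were Nr2f2, a nuclear receptor of caudal-eminence interneurons and of thalamus (143 and 26.2 CPM, 2.33, SE = 0.14), and the calcium-binding protein gene Calb2 (157 and 56.6 CPM, 1.56, SE = 0.17). All 4 had an adjusted p below 0.1 with edgeR. These 4 were picked with their values in view.

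Some pairs of genes moved in opposite directions across the 43 MAR_C3 animals. The most negative Pearson's r among all pairs of the 30 genes were those of Ebf1 with Npy (-0.75) and of Foxp1 with Pdyn (-0.72), and the highest was that of Lhx8 with Adora2a (0.86). In the IgG/FcRn/RNA series the most negative were those of Npy with Sox6 (-0.67) and with Dlx2 (-0.66), and the highest that of Ppp1r1b with Adora2a (0.96). These pairs were chosen for their values, and no test was made.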
